A study of Homo sapiens with 12 samples.

Results

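The genes described here make and break down the polyamines, and ODC1, which encodes ornithine decarboxylase, is placed first among them. The 10 members were chosen by name from the polyamine pathway after earlier results of these libraries were known. They are ODC1, AMD1, SRM, SMS, OAZ1, OAZ2, AZIN1, SAT1, SMOX and PAOX, 10 of the 60617 genes counted, and all 10 passed the filter on low counts (a mean of 1 or more per library), as did 23041 genes in all. mRNA-seq was performed in 12Z, an immortalized epithelial line derived from human endometriosis, with 3 libraries in each of 4 groups, to ask whether Viperin overexpression (OE) changes the response to insulin. The groups were pCAG Viperin with 100 nM insulin (Viperin + Insulin), pCAG Viperin with vehicle (Viperin), pCAG empty vector with 100 nM insulin (Insulin) and pCAG empty vector with vehicle (Control). All groups were transfected with a plasmid using FuGene HD, serum starved, and kept in serum-free medium for the 24 h of insulin or vehicle, so no group was untransfected; the treatment protocol calls the empty vector pBabe, which would make it another backbone than that of the Viperin plasmid. The methods count the 3 libraries of a group as independent experiments with a single cell line, and nothing names separate donors.

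Polyamines are small positively charged molecules that bind RNA and DNA and are needed for growth. ODC1 turns ornithine into putrescine, and AMD1 turns S-adenosylmethionine into the decarboxylated form that donates the propylamine group. SRM adds that group to putrescine to give spermidine, and SMS adds another to give spermine. Antizymes, encoded by OAZ1 and OAZ2, bind the ODC1 protein and send it to the proteasome, and AZIN1, an inactive relative of ODC1, takes antizyme away from it. SAT1 acetylates spermidine and spermine for export or oxidation, PAOX oxidizes the acetylated forms, and SMOX oxidizes spermine directly. Most of the known control of ODC1 and AMD1 acts on translation and protein turnover, which mRNA-seq does not read.

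Total assigned read pairs were 25979022 to 46889002 per library. RSAD2, the gene of Viperin, was at 476, 462 and 609 CPM in Viperin + Insulin libraries and 591, 665 and 384 CPM in Viperin libraries, against 3.01, 3.82 and 5.19 CPM in Insulin libraries and 3.48, 2.28 and 2.99 CPM in Control libraries. CPM is the count scaled to the assigned pairs of the library, after TMM correction. The log2 fold change of RSAD2 was 7.54 ± 0.33 (SE) for Viperin vs Control (edgeR quasi-likelihood test, adjusted p = 2.0e-05) and 6.99 ± 0.31 for Viperin + Insulin vs Insulin (adjusted p = 1.1e-05). Of the epithelial markers, KRT8, KRT18, KRT19 and KRT7 were at 33.8 CPM or more in every library, while EPCAM stayed at 0.0773 to 0.828 CPM and CDH1 at 0.808 to 2.003 CPM. The mesenchymal list, with VIM and COL1A1 at its head, summed to 3612 to 3840 CPM in Viperin + Insulin, 3654 to 3788 CPM in Viperin, 3430 to 3499 CPM in Insulin and 3392 to 3542 CPM in Control. In that order the mean of VIM was 1414, 1513, 1571 and 1623 CPM, so it was lower with the Viperin plasmid. COL1A1, COL1A2, DCN and PDGFRB had higher means with that plasmid, both with vehicle and with insulin. The 6-gene epithelial list summed to 2562 to 2674, 2430 to 2520, 2666 to 2840 and 2567 to 2635 CPM in the same order. The 4 endothelial markers summed to 13.18 to 13.72, 10.97 to 13.92, 10.07 to 11.14 and 10.35 to 11.59 CPM and the 5 leukocyte markers to 5.353 to 7.502 CPM over all libraries. The 4 erythroid markers summed to 0.105 to 0.212 CPM in Viperin + Insulin and 0.0497 to 0.283 CPM in Viperin, against 1.79 to 3.42 CPM in Insulin and 0.837 to 2.28 CPM in Control, with ALAS2 at 0 in every library. The difference between plasmids came from HBB alone, at 62 to 122 counts in Insulin and 26 to 59 in Control. HBB held 2 to 9 counts in Viperin + Insulin and 1 to 3 in Viperin. HBA1 and HBA2 held 0 to 5 counts per library. The part of these sums in the results below was not tested. Control library 1 and Viperin library 3 stood apart, with 13.9% and 12.1% of pairs mapping to more than 1 place, against 9.44% to 10.99% in the other libraries, and the members' results that rest on them are given with and without them.

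The members were expressed over a wide range. Per kilobase of annotated exon, OAZ1 was the most abundant at a mean of 107 CPM/kb and SMS followed at 89.8 CPM/kb. SAT1 (39.7 CPM/kb), ODC1 (37.5), SRM (36.8) and AZIN1 (35.6) lay close together, and their ranges over the 12 libraries overlapped, so their order is not set by these data. AMD1 (20.8 CPM/kb) and OAZ2 (17.7 CPM/kb) came next, SMOX was at 4.58 CPM/kb and PAOX at 0.164 CPM/kb. This order depends on the length used, which joins the exons of all annotated transcripts. It was 10193 bases for AMD1, 7671 for OAZ2 and 6130 for AZIN1, against 3307 for ODC1. By mean CPM, AZIN1 (218), AMD1 (212) and OAZ2 (136) lay above ODC1 (124), SAT1 (98.6) and SRM (69.8). PAOX had only 7 to 20 counts per library, so a change in it was not detectable at this depth unless very large. In CPM/kb, the ranges of OAZ1, SMS, AMD1, OAZ2, SMOX and PAOX did not overlap each other or those of the 4 genes between SMS and AMD1.

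**Figure D1:**
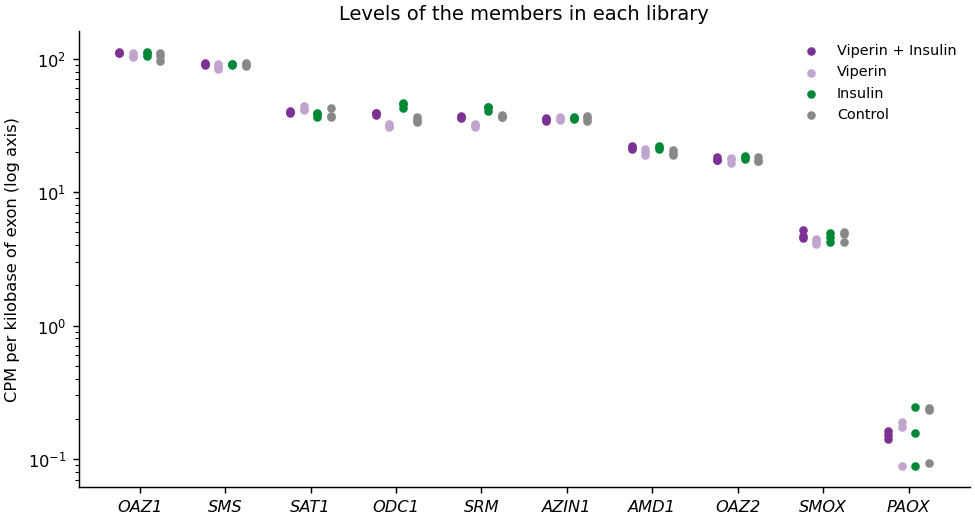
Level of each of the 10 members in every library, in CPM per kilobase of exon on a log axis, members ordered by their mean and each dot 1 library. OAZ1 and SMS lie on top, SAT1, ODC1, SRM and AZIN1 share 1 range, and PAOX, at 0.164 CPM/kb, lies far below the rest.

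ODC1 mRNA was higher with insulin and lower with the Viperin plasmid. The gene (ENSG00000115758.13) lies on the minus strand at chr2:10439968-10448327 (hg38). It was at 129, 129 and 125 CPM in Viperin + Insulin libraries, 101, 107 and 104 CPM in Viperin libraries, 140, 154 and 152 CPM in Insulin libraries, and 110, 121 and 115 CPM in Control libraries. Each of the 6 insulin-treated libraries was above each of the 6 vehicle libraries, and the order Insulin, Viperin + Insulin, Control, Viperin held without overlap between neighbours. Group means were 128 ± 2.11, 104 ± 3.11, 149 ± 7.27 and 116 ± 5.44 CPM (SD, n = 3 each) in Viperin + Insulin, Viperin, Insulin and Control.

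The log2 fold change of ODC1 was 0.36 ± 0.04 (SE) for Insulin vs Control, a 1.28-fold higher level, and 0.30 ± 0.04 for Viperin + Insulin vs Viperin, 1.23-fold. For the Viperin plasmid it was -0.15 ± 0.04 with vehicle and -0.22 ± 0.04 with insulin. The difference of the insulin responses, that with Viperin minus that with empty vector, was -0.06 on the log2 scale with a 95% interval of -0.18 to 0.05, which spans 0. As the members were chosen with these libraries known, the values are given as a description with no p. Leaving out Control library 1 gave 0.33 for Insulin vs Control and -0.19 for Viperin vs Control, and leaving out Control library 1 and Viperin library 3 together gave 0.33 and -0.19. The share of assigned pairs from mitochondrially encoded genes also moved, at 4.28% to 4.52% in Viperin + Insulin, 4.81% to 5.34% in Viperin, 5.14% to 5.18% in Insulin and 5.59% to 6.64% in Control. With those genes and RSAD2 out of the scaling the 4 log2 fold changes of ODC1 were as large, at 0.37, 0.29, -0.15 and -0.23 in the order Insulin vs Control, Viperin + Insulin vs Viperin, Viperin vs Control, Viperin + Insulin vs Insulin.

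**Figure D2:**
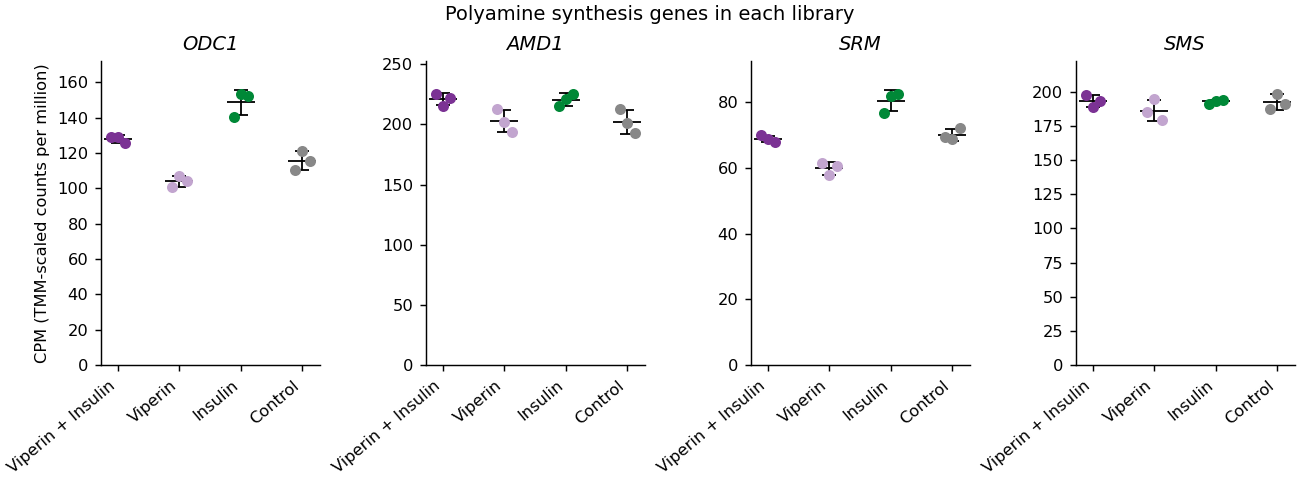
CPM of the synthesis genes ODC1, AMD1, SRM and SMS in each library (dots), with the group mean and SD (bars, n = 3); each axis starts at 0. All 6 insulin libraries of ODC1 lie at 125 CPM or more and all 6 vehicle libraries at 121 CPM or less, whereas the 4 groups of SMS overlap.

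SRM, the spermidine synthase gene (chr1:11054584-11060020, minus strand), had the same order of groups at the ends as ODC1. It was at 69.8, 68.7 and 67.9 CPM in Viperin + Insulin libraries, 61.4, 57.7 and 60.5 CPM in Viperin libraries, 76.8, 81.9 and 82.6 CPM in Insulin libraries, and 69.3, 68.6 and 72.2 CPM in Control libraries. Insulin libraries were above Control libraries and Viperin + Insulin libraries above Viperin libraries, and Viperin + Insulin overlapped Control. The log2 fold change was 0.20 ± 0.04 (SE) for both insulin comparisons, -0.23 ± 0.04 for Viperin vs Control and -0.22 ± 0.04 for Viperin + Insulin vs Insulin. The 2 insulin responses of SRM differed by 0.00, with a 95% interval of -0.12 to 0.12.

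AMD1, the S-adenosylmethionine decarboxylase gene (chr6:110874770-110898879, plus strand), was higher with insulin by a smaller step and had no difference between plasmids larger than its spread. It was at 226, 215 and 222 CPM in Viperin + Insulin libraries, 213, 202 and 194 CPM in Viperin libraries, 215, 221 and 225 CPM in Insulin libraries, and 212, 201 and 193 CPM in Control libraries. All 6 insulin libraries were above all 6 vehicle libraries, by a narrow margin. The log2 fold change was 0.13 ± 0.04 (SE) for Insulin vs Control and 0.12 ± 0.04 for Viperin + Insulin vs Viperin. For the plasmid it was 0.01 ± 0.04 with vehicle and 0.00 ± 0.04 with insulin, with 95% intervals of -0.07 to 0.08 for both. AMD1 passed an adjusted p of 0.05 in both insulin comparisons, but leaving out any of Control libraries 2 and 3 or Insulin libraries 2 and 3 ended the call of Insulin vs Control, at log2 fold changes of 0.09 to 0.12. The call of Viperin + Insulin vs Viperin was lost on leaving out any of the 3 Viperin + Insulin libraries, Viperin libraries 2 and 3 or Insulin libraries 2 and 3, at 0.09 to 0.14.

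SMS, the spermine synthase gene on chromosome X, did not pass in any comparison. It was at 198, 189 and 194 CPM in Viperin + Insulin libraries, 185, 194 and 179 CPM in Viperin libraries, 191, 193 and 194 CPM in Insulin libraries, and 187, 199 and 191 CPM in Control libraries. The groups overlapped in all 4 comparisons, with log2 fold changes of -0.05 to 0.05. The ratio of SRM to SMS counts within a library does not depend on the scaling, and was 0.353, 0.363 and 0.351 in Viperin + Insulin, 0.332, 0.297 and 0.338 in Viperin, 0.401, 0.424 and 0.425 in Insulin, and 0.370, 0.346 and 0.378 in Control. The Viperin + Insulin values were all above the Viperin values, and the Insulin values all above the Control values.

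The promoter windows of the 3 synthesis genes that were higher with insulin are shown together; AMD1 differed from ODC1 and SRM in the plasmid comparisons. Each is RefSeq sequence (GRCh38.p14), 250 bases before to 50 bases after the annotated start, 5′ to 3′ on the strand of the gene. Capitals mark CACGTG, the E-box read by MYC and MAX, and the GC box GGGCGG or its reverse complement CCGCCC. RefSeq gives ODC1 another start 315 bases downstream, and of that window only the 158 bases outside the first exon of the canonical transcript are shown.
ODC1, chr2:10448278-10448577, minus strand: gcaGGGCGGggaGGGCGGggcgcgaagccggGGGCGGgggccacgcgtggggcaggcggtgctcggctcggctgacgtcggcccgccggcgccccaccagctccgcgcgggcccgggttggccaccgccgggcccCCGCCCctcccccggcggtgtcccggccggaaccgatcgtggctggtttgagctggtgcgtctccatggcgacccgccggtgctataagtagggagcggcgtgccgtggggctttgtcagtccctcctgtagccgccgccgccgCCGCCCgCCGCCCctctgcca
ODC1, downstream start, chr2:10447963-10448120, minus strand: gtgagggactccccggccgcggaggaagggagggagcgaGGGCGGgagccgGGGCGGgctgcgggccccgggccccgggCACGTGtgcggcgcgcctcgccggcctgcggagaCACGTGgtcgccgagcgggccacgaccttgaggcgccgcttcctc
SRM, chr1:11059969-11060268, minus strand: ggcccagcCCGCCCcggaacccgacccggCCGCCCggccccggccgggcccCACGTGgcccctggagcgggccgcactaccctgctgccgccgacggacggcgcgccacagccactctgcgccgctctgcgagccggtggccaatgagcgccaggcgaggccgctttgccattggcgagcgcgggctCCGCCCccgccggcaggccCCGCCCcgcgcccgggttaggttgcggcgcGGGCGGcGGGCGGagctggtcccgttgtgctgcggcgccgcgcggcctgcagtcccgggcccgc
AMD1, chr6:110874535-110874834, plus strand: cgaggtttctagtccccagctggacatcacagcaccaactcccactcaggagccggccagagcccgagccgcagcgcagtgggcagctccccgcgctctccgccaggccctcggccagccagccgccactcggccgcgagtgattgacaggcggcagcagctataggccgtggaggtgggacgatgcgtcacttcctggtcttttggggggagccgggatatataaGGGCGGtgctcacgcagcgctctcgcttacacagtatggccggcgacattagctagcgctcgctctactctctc

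The window at the upstream ODC1 start held 6 GC boxes and no E-box, and that at the downstream start held 2 E-boxes. The SRM window held 1 E-box at position -199 from the start and 6 GC boxes. The AMD1 window held 1 GC box, and neither it nor those of the other AMD1 starts held an E-box. For comparison, 7.26% of 35116 RefSeq windows of the same length held an E-box and 45% held a GC box on either strand. Windows were given for 7 of the 10 members, and those of SMS, SAT1, OAZ1 and OAZ2 held no E-box. The TATA-box letters TATAAA, on either strand, were in the OAZ1 window alone among these members and in 11.5% of all windows. The OAZ1 match was at position 6, after the annotated start, where a TATA box is not placed. Only these exact letters were searched, so near variants were not counted. The FOXO core site GTAAACA was in no member's window and in 3.42% of all windows.

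**Figure D3:**
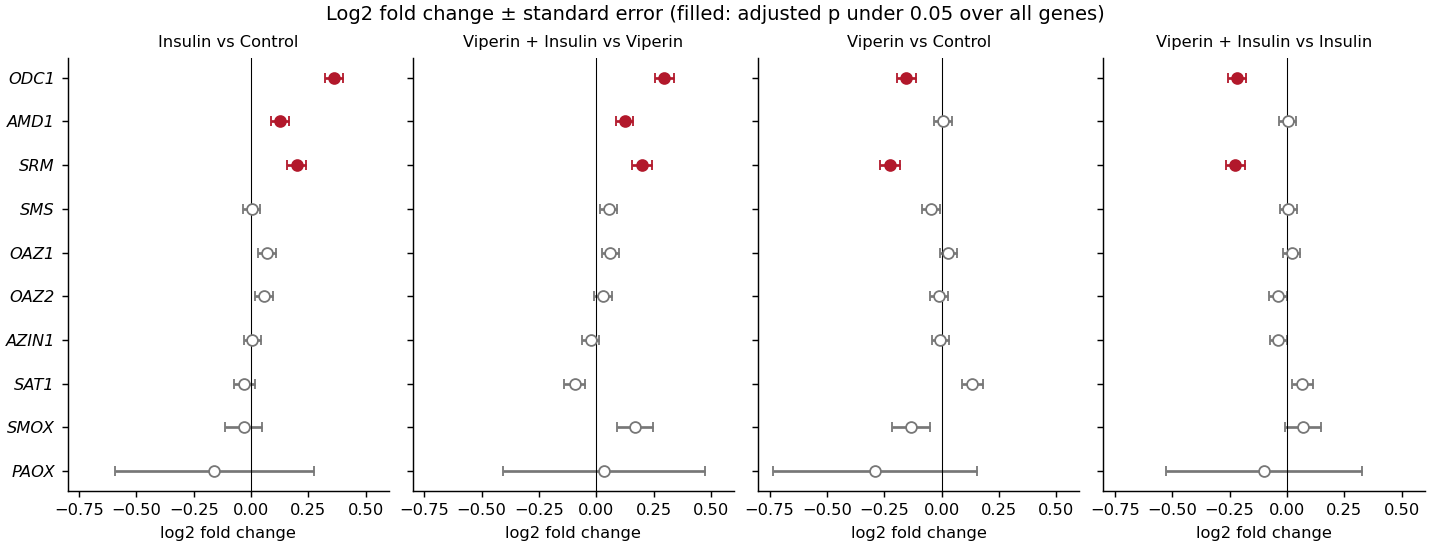
Log2 fold change of each member with its standard error in the 4 comparisons; filled dots passed an adjusted p of 0.05 over all genes tested. ODC1, AMD1 and SRM lie right of 0 in both insulin comparisons, and ODC1 and SRM left of 0 in both plasmid comparisons, while the wide bars of PAOX come with its 7 to 20 counts.

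Over the whole set, 3 of 10 members passed as higher for Insulin vs Control (ODC1, AMD1 and SRM) and none as lower, where 2.53% of all genes tested passed as higher and 2.96% as lower. The same 3 passed as higher for Viperin + Insulin vs Viperin and none as lower, where the shares of all genes were 2.17% and 2.39%. ODC1 and SRM passed as lower for Viperin vs Control (1.04% of all genes lower, 1.25% higher) and for Viperin + Insulin vs Insulin (0.994% lower, 2.09% higher), and no member passed as higher. As the members were chosen with these comparisons known, nothing is read from these shares. Since Control enters 2 of the comparisons and so does each other group, the 4 sets of values are not independent. The median log2 fold change of the 10 members was 0.03, 0.06, -0.03 and -0.02 in the order above, against -0.01, 0.00, 0.00 and 0.00 over all genes tested. No member passed in the difference of the insulin responses, where 0% of all genes did by edgeR. At an unadjusted p under 0.05 the count was 0 members and 1296 of all genes, and DESeq2 also gave 0 members.

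The call of ODC1 for Viperin vs Control was lost without Control library 2 (log2 fold change -0.12), Viperin library 1 (-0.13) or Viperin library 3 (-0.15). ODC1 kept its call in the other 3 comparisons, and SRM in all 4, on leaving out each of the 12 libraries in turn. Both were chosen with these libraries known, so kept calls describe the spread over libraries and are not separate support.

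The antizyme genes OAZ1 and OAZ2 and the antizyme inhibitor gene AZIN1 did not pass in any comparison. OAZ1 (chromosome 19) was at 377, 378 and 382 CPM in Viperin + Insulin libraries, 359, 354 and 377 CPM in Viperin libraries, 357, 385 and 378 CPM in Insulin libraries, and 379, 357 and 332 CPM in Control libraries. Control library 1 was the highest of its group, and without it OAZ1 passed as higher for Insulin vs Control at a log2 fold change of 0.12, against 0.07 ± 0.04 (SE) with all libraries. OAZ2 (chromosome 15) ranged from 126 to 142 CPM and AZIN1 from 208 to 227 CPM over the 12 libraries, with overlapping groups in all 4 comparisons and log2 fold changes of -0.04 to 0.05 for OAZ2 and -0.04 to 0.01 for AZIN1.

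Antizyme is made only when the ribosome skips a base at an internal stop codon, a step that polyamines promote, so its mRNA level does not give the level of the protein. The site is shown for both genes because they share it; capitals mark the codon before the stop, the TGA stop codon and the base after it. The genome sequence is hg38, and the skipped base is the T of TGA in the annotation (GENCODE 44).
OAZ1, chr19:2271431-2271455, plus strand: cggtggtgcTCCTGATgcccctcac
OAZ2, chr15:64691503-64691527, minus strand: ctgtggtgcTCCTGATgcccctcac
The stop codon follows 68 codons in OAZ1 and 32 codons in OAZ2.

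ODC1 relative to OAZ1 followed ODC1. The ratio of ODC1 to OAZ1 counts was 0.342, 0.342 and 0.328 in Viperin + Insulin libraries, 0.281, 0.303 and 0.276 in Viperin libraries, 0.393, 0.399 and 0.402 in Insulin libraries, and 0.291, 0.339 and 0.348 in Control libraries. Viperin + Insulin lay above Viperin and Insulin above Control without overlap, whereas Viperin and Control overlapped, and so did Viperin + Insulin and Control.

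**Figure D4:**
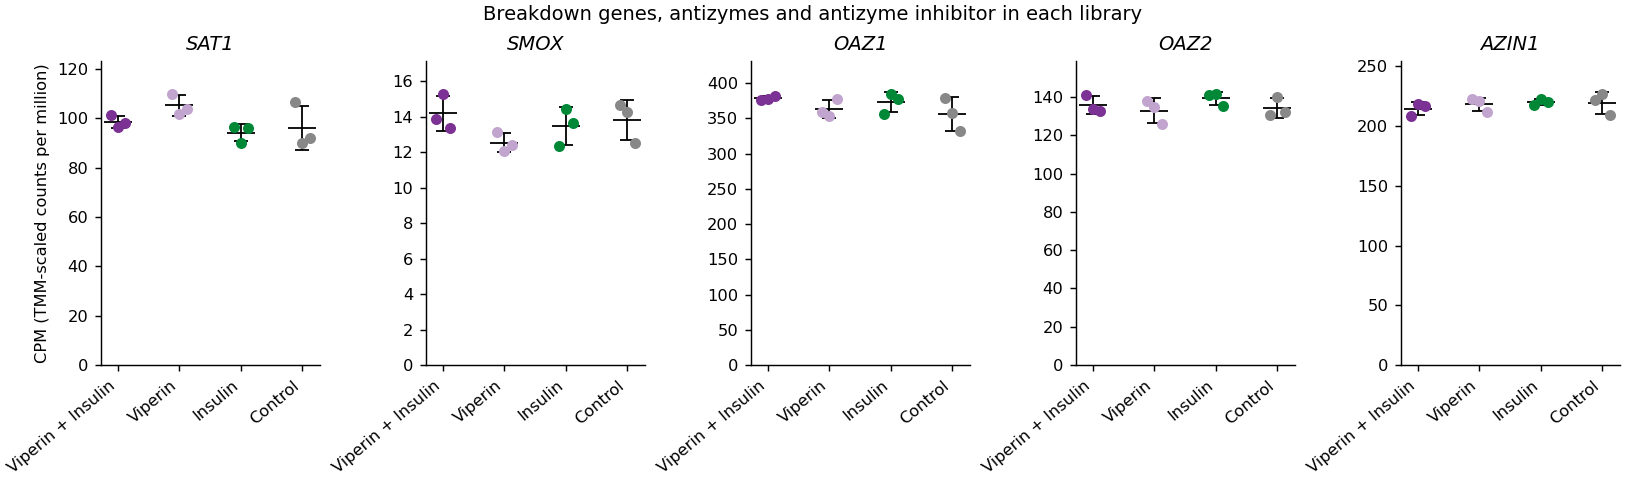
CPM of SAT1, SMOX, OAZ1, OAZ2 and AZIN1 in each library (dots), with the group mean and SD (bars, n = 3); each axis starts at 0. Control library 1 stands above the other 2 Control libraries for SAT1, at 107 CPM against 90.1 and 92.1 CPM.

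Of the breakdown genes, SAT1 (chromosome X) was at 101, 96.5 and 98.4 CPM in Viperin + Insulin libraries, 110, 102 and 104 CPM in Viperin libraries, 96.4, 90.2 and 96.0 CPM in Insulin libraries, and 107, 90.1 and 92.1 CPM in Control libraries. Viperin + Insulin lay below Viperin and above Insulin without overlap, and neither difference passed, at log2 fold changes of -0.09 ± 0.05 (SE) and 0.07 ± 0.05. Viperin vs Control was 0.13 ± 0.05 and did not pass with all libraries, and passed as higher at 0.21 without Control library 1 and at 0.22 without Control library 1 and Viperin library 3. SMOX (chromosome 20) was at 13.9, 15.3 and 13.4 CPM in Viperin + Insulin libraries, 13.1, 12.1 and 12.4 CPM in Viperin libraries, 12.3, 14.4 and 13.7 CPM in Insulin libraries, and 14.7, 14.2 and 12.5 CPM in Control libraries. Its groups overlapped except that Viperin + Insulin lay above Viperin, at a log2 fold change of 0.17 ± 0.08, which did not pass. PAOX (chromosome 10) was at 0.198 to 0.547 CPM with overlapping groups throughout.

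ODC1 was also set against SAT1, a synthesis against a breakdown gene. The ratio of ODC1 to SAT1 counts was 1.27, 1.34 and 1.27 in Viperin + Insulin libraries, 0.916, 1.05 and 1.00 in Viperin libraries, 1.45, 1.70 and 1.58 in Insulin libraries, and 1.03, 1.34 and 1.25 in Control libraries. Insulin lay above Control, and Viperin + Insulin above Viperin, without overlap, and Viperin overlapped Control.

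Copies and neighbours of the members took few pairs. The pseudogenes ODCP, AMD1P1 to AMD1P4, SRMP1 to SRMP3, SMSP1 and OAZ1P1 held 0 to 6 counts per library, and ODC1-DT, the divergent transcript beside ODC1, held 6 to 24. Counts on the opposite strand of ODC1 were 0 to 6 per library, and the highest of any member were 41 to 97 for OAZ2. Pairs that mapped to a gene and to its copy were not counted by either.

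The 5 genes with a pattern most like that of ODC1, by Pearson correlation of log2 CPM over the 12 libraries among 10888 protein-coding genes with a mean of at least 100 counts, were PRMT5, an arginine methyltransferase (r = 0.987), STRAP (0.975), VDAC1, the mitochondrial outer membrane channel (0.974), CDC20, an activator of the anaphase-promoting complex (0.971), and PSMD14, a proteasome deubiquitinase (0.969). The 12 points share the 4 groups, so most of each correlation comes from the group means. With those removed, r was 0.767, 0.703, 0.701, 0.858 and 0.568 in the same order. The 5 genes were picked by r over the same libraries, deviations included. These values and the group order of each gene are thus partly set by that choice. PRMT5 was at 126 to 131 CPM in Viperin + Insulin, 113 to 114 CPM in Viperin, 135 to 143 CPM in Insulin and 120 to 124 CPM in Control, with the 4 groups in the order seen for ODC1. Among the members, r with ODC1 was 0.902 for SRM (rank 146), 0.656 for AMD1 and -0.669 for SAT1. With the group means removed it was 0.21, -0.20 and -0.75. For OAZ2, SMS, OAZ1, SMOX and AZIN1, r was 0.528, 0.522, 0.363, 0.354 and 0.097. Without the group means these were 0.20, 0.54, 0.04, 0.25 and 0.21, so SMS was the highest member by that measure.

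Beyond the members, 7 lists of 57 related genes were written from general knowledge with earlier results known, and 51 of the 57 could be tested; SATL1, ARG1, OTC, ATP13A4, AOC1 and MYCN could not. By edgeR with all libraries, 3 passed as higher and 4 as lower for Insulin vs Control (2.53% and 2.96% of all genes tested), and 4 as higher and 2 as lower for Viperin + Insulin vs Viperin (2.17% and 2.39%). For Viperin vs Control 2 passed as higher and 1 as lower (1.25% and 1.04%), and for Viperin + Insulin vs Insulin 1 as higher and 1 as lower (2.09% and 0.994%). The lists were written with earlier results known, so nothing is read from these counts. The adjusted p-values of listed genes given below carry the same limit and describe these libraries only. The median log2 fold change of the 51 was 0.03, 0.03, 0.00 and 0.01 in that order. In the difference of the insulin responses 0 passed by edgeR and 0 by DESeq2, and 2 were under an unadjusted p of 0.05 (EIF5A2 and SLC22A3). None of OAZ3, AZIN2 and SAT2, relatives of the members, passed with all libraries, and neither did any of the 4 amine oxidase genes tested. AZIN2 passed as higher for Viperin + Insulin vs Insulin without Control library 1 or 3 (0.32), and MAOB, at 0 to 9 counts per library, is too low for its fold change to be read.

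Of the listed genes that passed, 2 transporters had the largest log2 fold changes, SLC3A2 and SLC22A3. SLC3A2, the heavy chain of amino acid transporters that has also been linked to polyamine export, was at 148, 157 and 156 CPM in Viperin + Insulin libraries, 122, 120 and 125 CPM in Viperin libraries, 163, 177 and 175 CPM in Insulin libraries, and 136, 128 and 116 CPM in Control libraries. All 6 insulin libraries were above all 6 vehicle libraries. The log2 fold change was 0.44 ± 0.04 (SE; edgeR adjusted p = 5.5e-11) for Insulin vs Control and 0.33 ± 0.04 (adjusted p = 1.6e-07) for Viperin + Insulin vs Viperin. It was -0.16 ± 0.04 (adjusted p = 0.019) for Viperin + Insulin vs Insulin, a call lost without Insulin library 2 or 3 or Viperin + Insulin library 1, at -0.15 to -0.14. ATP13A2, a lysosomal polyamine exporter, was lower for Viperin + Insulin vs Viperin (-0.18 ± 0.06, adjusted p = 0.047), and that call was lost without any of Viperin + Insulin libraries 1, 2 and 3, Viperin libraries 1 and 2 or Insulin libraries 2 and 3 (adjusted p 0.051 to 0.33), and with unstranded counts (0.096). ATP13A3, another polyamine transporter, did not pass with all libraries (0.13 ± 0.05, adjusted p = 0.17, for Viperin vs Control, and 0.06 ± 0.05, adjusted p = 0.63, for Insulin vs Control). Without Control library 1 it passed as higher in both, at 0.20 (adjusted p = 2.7e-04) and 0.13 (adjusted p = 0.038), and also without that library and Viperin library 3, at 0.23 and 0.13.

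SLC22A3, an organic cation transporter, was low, at 3.34, 3.64 and 3.95 CPM in Viperin + Insulin libraries, 4.55, 4.60 and 4.81 CPM in Viperin libraries, 4.00, 4.99 and 4.31 CPM in Insulin libraries, and 3.21, 3.36 and 2.51 CPM in Control libraries. It was higher for Insulin vs Control (log2 fold change 0.55 ± 0.14, edgeR adjusted p = 0.0065) and for Viperin vs Control (0.62 ± 0.14, adjusted p = 0.0048). Both calls were lost without Control library 3 (adjusted p = 0.10 and 0.088), and that of Insulin vs Control without Insulin library 2 (adjusted p = 0.10). DESeq2 gave no adjusted p for Viperin vs Control, so that call rests on edgeR. SLC22A3 was lower in Viperin + Insulin than in Viperin libraries without overlap, and that comparison did not pass.

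Hypusine formation uses spermidine to modify the translation factor eIF5A. In each insulin comparison 1 of its 4 genes passed as higher, where 2.53% and 2.17% of all genes did. The gene that passed differed, but each also had a higher mean, without passing, in the other comparison. EIF5A2 was at 49.8 CPM in Viperin + Insulin against 45.7 CPM in Viperin, and EIF5A at 267 CPM in Insulin against 258 CPM in Control. Neither passed in the difference of the insulin responses. EIF5A2 was higher for Insulin vs Control (log2 fold change 0.28 ± 0.05, edgeR adjusted p = 1.7e-04), at 46.7, 53.7 and 51.0 CPM in Insulin libraries against 41.9, 40.5 and 42.6 CPM in Control libraries. EIF5A was higher for Viperin + Insulin vs Viperin (0.13 ± 0.04, adjusted p = 0.019) and lower for Viperin vs Control (-0.15 ± 0.04, adjusted p = 0.010). The first of these was lost without any of Viperin + Insulin libraries 1, 2 and 3 or Viperin libraries 1 and 2 (0.12 to 0.14), and the other without Control library 3 or Viperin libraries 1 or 2 (-0.14 to -0.12), with unstranded counts (-0.11, adjusted p = 0.17) and in a fit of only the groups compared (adjusted p = 0.076). DHPS and DOHH, the enzymes that make hypusine, did not pass by edgeR with all libraries. DHPS had only 18 to 51 counts per library, and 60 to 88 on the opposite strand, so only a large change in it was detectable. Why its counts were low, and whether they give the level of its mRNA, was not tested. DOHH, at a log2 fold change of 0.31 ± 0.10 for Insulin vs Control (adjusted p = 0.073), passed as higher by DESeq2 (adjusted p = 0.041), with no filter on low counts (0.0029), in a fit of only the groups compared (0.020), and without Control library 1 (0.43), Viperin + Insulin library 2 or Viperin library 3 (0.31 each).

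Of the 13 genes that supply S-adenosylmethionine or salvage methylthioadenosine, the by-product of SRM and SMS, none passed for Insulin vs Control by edgeR with all libraries. ENOPH1, an enzyme of the salvage route, passed as higher at 0.14 by DESeq2 (adjusted p = 0.041) and with the edgeR filterByExpr filter (0.045), and at 0.17 without Control library 3. MAT2A, which makes S-adenosylmethionine, passed as higher for Viperin vs Control by DESeq2 (0.11) and without Control library 1 (0.12). MTRR, which reactivates methionine synthase, was higher for Viperin + Insulin vs Viperin (0.16 ± 0.04, edgeR adjusted p = 0.015), a call lost without Viperin + Insulin libraries 1 or 3 or Viperin library 3 (0.14 to 0.15) or when both libraries that stood apart were dropped (0.13). MTR, methionine synthase, was higher for Viperin + Insulin vs Insulin (0.19 ± 0.04, adjusted p = 0.0032), a call lost without Insulin library 2 or Viperin + Insulin library 3 (0.14 to 0.16). Of the 7 ornithine and arginine genes tested, ARG2, the mitochondrial arginase, was higher for Viperin + Insulin vs Viperin (0.19 ± 0.05, adjusted p = 0.0071), at 48.6, 48.3 and 47.8 CPM against 43.7, 39.6 and 43.2 CPM in Viperin libraries. That call was lost without Viperin + Insulin library 1 or Viperin library 2 (0.15 to 0.18) and with unstranded counts (0.19, adjusted p = 0.099). For Viperin vs Control ARG2 did not pass in the edgeR fit of all libraries, and passed as lower at -0.17 by DESeq2, with RLE size factors, with filterByExpr and without Control library 1. SLC25A15, the mitochondrial ornithine carrier, did not pass for Insulin vs Control in that fit, and passed as higher without Control library 1 (0.27), by DESeq2, with RLE size factors and under other filters (0.22 each). ASS1 passed as higher for Viperin vs Control without Control library 1 or 3 (0.18 and 0.20).

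ODC1 is a textbook target of MYC, and the genes of the MYC network were followed for that reason. MYC itself was at 34.1, 35.0 and 33.1 CPM in Viperin + Insulin libraries, 36.4, 36.7 and 36.8 CPM in Viperin libraries, 31.3, 31.4 and 31.0 CPM in Insulin libraries, and 31.6, 29.3 and 32.6 CPM in Control libraries. Its log2 fold change was 0.00 ± 0.06 for Insulin vs Control and -0.11 ± 0.05 for Viperin + Insulin vs Viperin, neither of which passed. It was higher for Viperin vs Control (0.23 ± 0.05, edgeR adjusted p = 0.0081), a call lost without Control library 2 (0.19, adjusted p = 0.096). ODC1 and SRM were lower in that comparison. They were also lower for Viperin + Insulin vs Insulin, where MYC did not pass. A part of MYC in the levels of ODC1 and SRM was not tested.

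**Figure D5:**
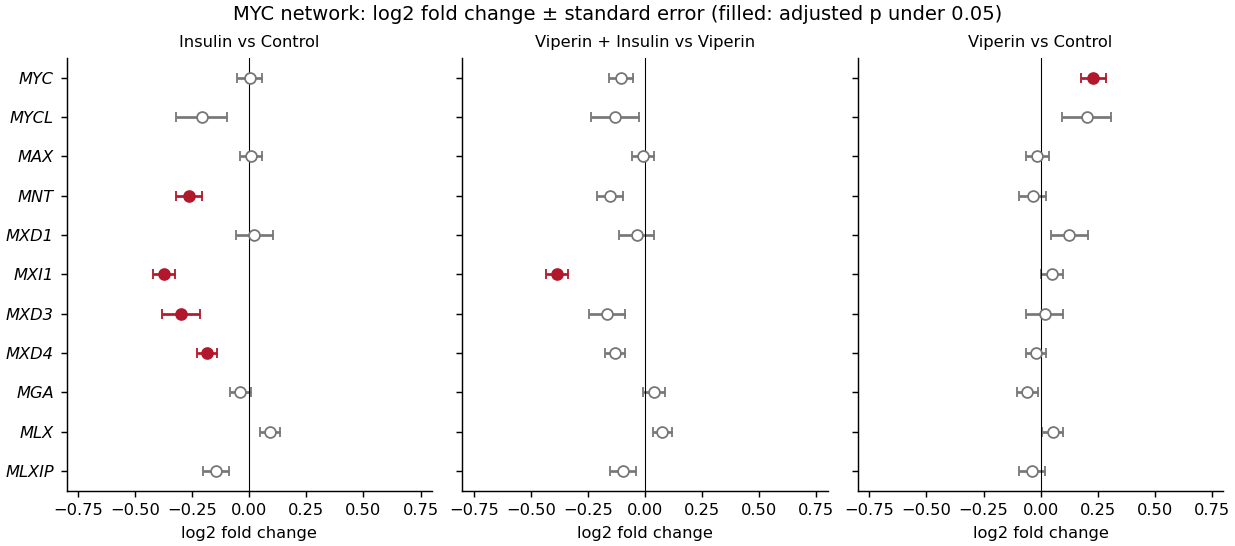
Log2 fold change with standard error of the 11 MYC network genes tested, in both insulin comparisons and in Viperin vs Control; filled dots passed an adjusted p of 0.05 over all genes. MXI1 lies at -0.37 and -0.38 in the insulin comparisons, and MYC, at 0.23, is the 1 gene that passed for Viperin vs Control.

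Of the 11 MYC network genes tested, 4 were lower for Insulin vs Control (2.96% of all genes were) and 1 of these also for Viperin + Insulin vs Viperin (2.39%). All 4 are among the 6 listed genes that oppose MYC by competing for MAX. Those 6 were not a list of their own, and nothing is read from the counts. The remaining ones of the 6, MXD1 (0.02 ± 0.08 and -0.04 ± 0.08 in the insulin comparisons) and MGA (-0.04 ± 0.05 and 0.04 ± 0.05), did not pass in either. MXI1 was at 42.8, 40.2 and 43.6 CPM in Viperin + Insulin libraries, 56.7, 57.0 and 51.6 CPM in Viperin libraries, 43.4, 39.6 and 40.3 CPM in Insulin libraries, and 52.5, 53.8 and 53.4 CPM in Control libraries. Its log2 fold change was -0.37 ± 0.05 (edgeR adjusted p = 1.0e-07) and -0.38 ± 0.05 (adjusted p = 3.2e-08) in the insulin comparisons, and the insulin groups lay below the vehicle groups without overlap. MNT, MXD3 and MXD4 were lower for Insulin vs Control by -0.26 ± 0.06 (adjusted p = 0.0014), -0.30 ± 0.08 (0.016) and -0.18 ± 0.04 (0.0047). The calls of MXD3 and MXD4 were lost without Control library 3 (-0.23 and -0.14), and that of MXD3 also without Insulin library 1 or 2 (-0.27 and -0.29). For Viperin + Insulin vs Viperin these 3 genes were at -0.15, -0.17 and -0.13 and did not pass, while MXD4 passed as lower without any of the 3 Control libraries (-0.13) or Viperin library 1 (-0.17), with no filter on low counts and in a fit of only the groups compared (-0.13 each). MAX, the shared partner, was at 0.01 and -0.01 in the 2 comparisons.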

How the data were processed

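The members and lists were chosen with earlier results of these data known. Per the labels and the methods, the authors ran Trim Galore with cutadapt on paired-end reads, looked at quality in FastQC, and used STAR for alignment to hg38 and for gene counts; which versions were run is not given in the sources used here. Deposited values are raw counts, with no normalization, filter or pooling. Reverse-strand counts were used (94.1% to 94.3% of pairs assigned to a strand). Pairs that were unmapped, multimapped, in no gene or ambiguous between genes, 20.6% to 24.9%, were left out. The methods name a mouse GENCODE release, but the IDs are human. Symbols for 60357 of 60617 IDs, coordinates and exon lengths came from GENCODE 44. The empty vector is pCAG in most labels but pBabe in the treatment protocol.

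Genes averaging 1 count or more were fitted as 4 group means with edgeR 4.0.16 in R 4.3.3 (TMM, robust quasi-likelihood, prior count 2) over 12 libraries. P-values were adjusted by Benjamini-Hochberg over all 23041 genes and called at 0.05. The paper used DESeq2 with IHW at 0.001. Named genes are the members, up to 4 genes per list with the smallest p among those that passed, the 5 most like ODC1, and RSAD2; OAZ3, AZIN2, SAT2, MAOB, ATP13A3, ENOPH1, MAT2A, SLC25A15, ASS1, DHPS, DOHH, MAX, MXD1 and MGA were added after their values were seen. Alternatives were RLE size factors, another scaling, DESeq2 1.42.0, other filters, unstranded counts, a replicate block, fewer groups, 0.001, and libraries left out. The fit was tested on simulated data. Tables were made in Python 3.11.15 (pandas 2.3.3, numpy 2.4.6) and figures in matplotlib 3.10.9.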

Additional observations from a re-analysis of the deposited data

Results flagged for a closer look

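SLC22A3 had estimated insulin responses of opposite sign in the 2 plasmids. All 3 Viperin + Insulin libraries lay below all 3 Viperin libraries, and all 3 Insulin libraries above all 3 Control libraries. SLC22A3 did not pass for Viperin + Insulin vs Viperin, so the opposite signs are those of the estimates alone. The difference of its log2 insulin responses, with Viperin minus with empty vector, was -0.89 ± 0.19 (SE), with an edgeR adjusted p of 0.053, just outside 0.05. The levels rest on 83 to 186 counts per library. Over the alternatives that gave it a call the adjusted p was 0.0057 with no filter on low counts, 0.025 without Control library 1 and Viperin library 3, 0.031 with a replicate block, 0.042 with unstranded counts, and 0.011 to 0.026 without Control library 1, Control library 2 or Insulin library 1. No call was made with RLE size factors, with the other scaling, by DESeq2, with filterByExpr, or on leaving out any 1 of the other 9 libraries.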

How the results depend on the processing

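ODC1 kept its direction in all 5 comparisons under each alternative tried. With 1 library left out its log2 fold change was 0.33 to 0.40 for Insulin vs Control, 0.27 to 0.32 for Viperin + Insulin vs Viperin, -0.19 to -0.12 for Viperin vs Control, -0.26 to -0.19 for Viperin + Insulin vs Insulin and -0.10 to -0.03 for the difference. The members that passed then numbered 2 to 4, 2 to 3, 1 to 3, 2 to 2 and 0 to 0, and the other pathway genes 5 to 10, 2 to 7, 2 to 7, 0 to 3 and 0 to 1, in the same order. At an adjusted p under 0.001 the members numbered 1 (ODC1), 1 (ODC1), 1 (SRM) and 2, and the other genes 3, 2, 0 and 0, against 7, 6, 3 and 2 at 0.05. Of all 23041 genes tested, 272, 256, 70 and 109 passed at 0.001. The members and lists were chosen with these libraries known, so these counts are not separate support. Fitting only the groups compared left 1 member (SRM) for Viperin vs Control and gave 7 other genes for Viperin + Insulin vs Insulin. Without Control library 1 and Viperin library 3 there were 5 other genes for Viperin vs Control. The difference had 1 other gene, SLC22A3, with no filter on low counts, with unstranded counts, with a replicate block and without those 2 libraries. Of the causes none was tested, beside fewer libraries or genes in a fit. Same-numbered libraries of different groups did not deviate together (correlations -0.17 to 0.12, 1 of 18 over 0.1, and 1 of 12 libraries correlated best with its own number), so numbers were not taken as pairs; the replicate block left the members that passed at 3, 3, 2, 2 and 0, ended the call of ATP13A2 for Viperin + Insulin vs Viperin (adjusted p = 0.057), and gave ODC1 0.36, 0.30, -0.15, -0.22 and -0.06. AMD1 lost its call for Viperin + Insulin vs Viperin with unstranded counts (0.12) and without Control library 1 and Viperin library 3 (0.09). Low counts limit PAOX, at 7 to 20 counts, DHPS and SLC22A3.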
